A study of Mus musculus with 22 samples.

Results

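The response of the infrarenal mouse aorta to periaortic calcium chloride plus infused angiotensin II was measured on 4 of the series' 22 expression arrays, each holding RNA pooled from several mice. The arrays were 1 infrarenal Ca+AngII pool and 1 infrarenal control pool in mice lacking tenascin C (TNC-KO), and the same pair in wild-type (WT) mice. Each Ca+AngII pool was set against the control pool of its own genotype, which gave 2 log2 ratios per gene with genotype as the only replicate. Of 18193 genes measured, 12105 reached the median probe set signal of the array on at least 1 of the 4 arrays. Among these, 9719 (80.3%) had a ratio of the same sign in both genotypes, 5166 (42.7%) higher and 4553 (37.6%) lower in the Ca+AngII pools.

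All mice were male and of the C57BL/6 background. In the Ca+AngII groups, CaCl2 at 0.5 M was applied around the infrarenal aorta and AngII was infused at 1 µg per min per kg for 1 week, and 8 mice were pooled per array. The control groups had no treatment, so they were neither sham operated nor given vehicle, and 5 mice were pooled per array. The infrarenal segment was 10 mm of aorta below the left renal artery, and the suprarenal segment, 10 mm above the right renal artery, came from the same 4 groups of mice and was not exposed to CaCl2. Every treated mouse received both agents, so the effects of CaCl2 and AngII on the infrarenal wall cannot be told apart. Each condition of a genotype was a single array, so all p-values here measure only the spread between these pools.

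The medial layer of the abdominal aorta consists mainly of contractile smooth muscle cells between elastic lamellae, with an adventitia of fibroblasts and collagen and with perivascular fat outside it. Calcium chloride laid on the vessel damages elastic fibres and draws in inflammatory cells, and AngII, acting on its type 1 receptor, raises blood pressure and drives inflammation and matrix turnover. Tenascin C is a matrix glycoprotein that adult tissue makes at sites of injury and mechanical load, and its loss has been studied in mouse models of aortic disease.

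The probe set read for Tnc itself gave signals of 441 in the TNC-KO and 2699 in the WT Ca+AngII pool, against 336 in the TNC-KO and 2453 in the WT control pool. On this probe set both TNC-KO pools lay far below both WT pools. The log2 ratio of Ca+AngII over control was 0.39 in TNC-KO and 0.14 in WT aorta, and the change over both genotypes did not pass the test (0.26, SE 0.14, limma adjusted p = 0.24).

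The 4 arrays had median signals of 121 to 134, and the mean of the middle 96% of signals was 500.0 on each, so they had been scaled alike. Log2 signals correlated at r = 0.952 between the 2 Ca+AngII pools and 0.941 between the 2 control pools. Markers of several other tissues differed between single pools, and the labels do not say whether such tissue was taken with the segments. The summed signal of 22 markers of the exocrine pancreas was 20596 in the TNC-KO and 135153 in the WT Ca+AngII pool, against 1164 in the TNC-KO and 1084 in the WT control pool. Defining acinar transcription factors (Ptf1a, Rbpjl, Bhlha15) stayed below the signal threshold. The summed signal of 9 seminal vesicle genes was 129 in the TNC-KO and 63.8 in the WT Ca+AngII pool, against 11906 in the TNC-KO and 295 in the WT control pool. The 4 skeletal muscle markers (Ckm, Acta1, Myh4, Tnnt3) summed to 9568 in the TNC-KO and 4237 in the WT Ca+AngII pool, against 584 in the TNC-KO and 12580 in the WT control pool. All 19 pancreas genes that passed the signal threshold rose, against 16.6% of all genes tested. Genes low in control pools could pass the threshold only through a Ca+AngII pool, so this count supports nothing by itself. Of the 22 measured, 20 were higher and 1 lower in both genotypes. Cela2a, a pancreatic elastase, had 2301 in the TNC-KO and 13243 in the WT Ca+AngII pool, against 7.68 in the TNC-KO and 12.1 in the WT control pool. Adrenal markers (Star, Cyp11a1, Cyp11b1, Hsd3b1) summed to 561 in the TNC-KO and 308 in the WT Ca+AngII pool, against 5019 in the TNC-KO and 307 in the WT control pool. Of the 20 genes with the highest ratios in both genotypes, 9 were among the 22 pancreas markers, and 4 of the 20 lowest were among the 9 seminal vesicle genes. The 18S ribosomal RNA probe set read 1468 in the TNC-KO and 1427 in the WT Ca+AngII pool, against 5364 in the TNC-KO and 2787 in the WT control pool. The 12 poly-A control probe sets, for RNA added to each sample, had a median log2 ratio of Ca+AngII over control of -0.93 in TNC-KO and -0.26 in WT, and the 9 hybridization controls one of -0.28 in TNC-KO and -0.31 in WT. The part of these tissues, of this RNA and of these controls in other results was not tested. In a pooled tissue, fewer cells of a type and less RNA per cell cannot be told apart.

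At least 2-fold higher signal in both genotypes was found for 1025 genes (8.47% of those tested) and at least 2-fold lower signal in both for 487 (4.02%). limma, with genotype as a block and Benjamini-Hochberg adjustment over 12105 genes, called 2012 genes higher (16.6%) and 1483 lower (12.3%) at an adjusted p under 0.05. Of these, 1018 higher (8.41%) and 484 lower (4%) were also at least 2-fold changed in both genotypes. Both Ca+AngII pools lay above both control pools for 4774 genes (39.4%) and below them for 4098 (33.9%). A gene that is low in control pools could pass the signal threshold only through a treated pool, so counts over the genes that passed describe them and support nothing by themselves. The limma calls rest on the signal threshold: with all 18193 genes tested, 0 passed, the lowest adjusted p was 0.125, and 4423 had an unadjusted p under 0.05. Across the genes tested, the ratios in TNC-KO and WT aorta correlated at r = 0.812 (Spearman 0.8), genes not being independent replicates. The median gene differed between genotypes by 0.223 in log2 ratio. Only 26 genes were at least 2-fold changed in opposite directions. Below, "rose" and "fell" are used for genes that limma called. List counts below of genes that rose or fell are to be read beside the 16.6% of all genes tested that rose and the 12.3% that fell. Counts from the test between segments have their own shares, given with them.

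**Figure D1:**
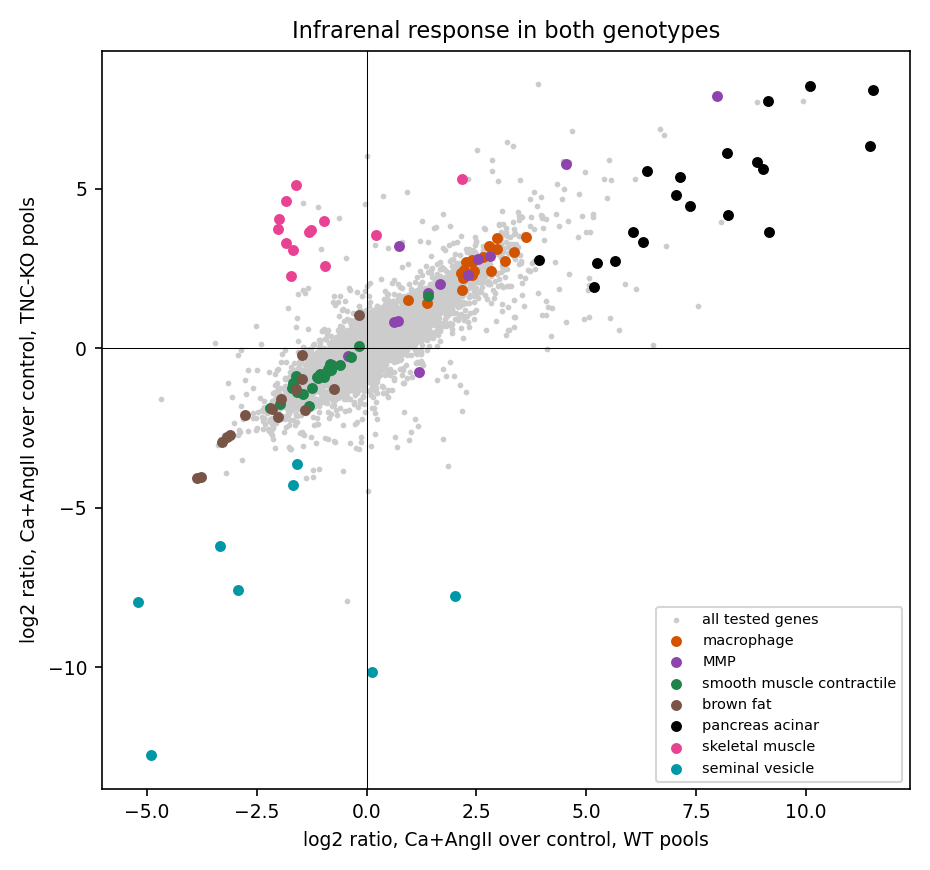
Log2 ratio of the Ca+AngII over the control pool in the infrarenal aorta (vertical axis, TNC-KO pools) against that in WT pools (horizontal axis), 1 grey point per gene tested (12105), with members of 7 gene lists in colour. Macrophage genes lie in the upper right, as do most MMP and pancreas genes, most contractile and brown fat genes lie in the lower left, and skeletal muscle genes mostly in the upper left.

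Matrix metalloproteinases, the secreted or membrane-bound enzymes that cut collagen, elastin and other matrix proteins, were mostly higher. Of 15 measured, 13 passed the signal threshold, and 9 of these rose and 1 fell. Their median log2 ratio was 2.02 in TNC-KO and 1.40 in WT, where the median of all genes tested was 0.07 in TNC-KO and 0.00 in WT. Promoters are shown for the 3 family members that lie next to each other in the genome and had high signals, Mmp13 (collagenase-3), Mmp12 (macrophage elastase) and Mmp3 (stromelysin-1). The windows run from 250 bases before to 50 after the start site, from RefSeq on GRCm38.p6, 5′ to 3′, with the AP-1 motif TGANTCA in capitals.
Mmp13, chr9:7272264-7272563, + strand: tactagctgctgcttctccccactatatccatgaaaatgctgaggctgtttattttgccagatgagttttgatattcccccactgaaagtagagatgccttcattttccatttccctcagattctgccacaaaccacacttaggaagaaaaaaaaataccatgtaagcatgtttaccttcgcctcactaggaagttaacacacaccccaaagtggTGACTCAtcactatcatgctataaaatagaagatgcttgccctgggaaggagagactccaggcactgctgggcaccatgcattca
Mmp12, chr9:7347124-7347423, + strand: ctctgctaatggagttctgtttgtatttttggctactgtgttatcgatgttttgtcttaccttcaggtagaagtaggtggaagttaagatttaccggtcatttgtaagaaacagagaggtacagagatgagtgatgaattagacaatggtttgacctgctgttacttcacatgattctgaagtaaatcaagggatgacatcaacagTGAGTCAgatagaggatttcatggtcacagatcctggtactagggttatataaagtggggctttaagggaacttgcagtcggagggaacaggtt
Mmp3, chr9:7445572-7445871, + strand: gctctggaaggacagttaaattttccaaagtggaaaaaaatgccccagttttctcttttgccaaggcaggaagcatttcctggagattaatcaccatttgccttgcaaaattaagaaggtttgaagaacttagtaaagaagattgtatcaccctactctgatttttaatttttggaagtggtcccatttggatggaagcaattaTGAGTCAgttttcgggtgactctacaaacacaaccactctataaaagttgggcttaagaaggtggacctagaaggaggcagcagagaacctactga
This motif, bound by Fos and Jun proteins, was present in 5 of the 10 family members with a promoter in the table (Mmp3, Mmp7, Mmp10, Mmp12 and Mmp13) and in 8.97% of 27025 genes. It was also in 6 of 16 interferon-induced and 3 of 14 CXC chemokine genes, so it was not particular to this family. In the other lists searched it was in 2 of 15 macrophage identity, 2 of 21 contractile and 1 of 14 brown fat genes. Searched on both strands, after the signals had been seen, were 7 motifs. The others were the CArG box, PU.1 (GAGGAAG), C/EBP (TTGC, any 2 bases, AA), the PPAR element (AGGTCA, any base, AGGTCA), NF-kB (GGGA, any base, TTTCC) and the interferon-stimulated response element (GAAA, any 2 bases, GAAA). The C/EBP motif was in 5 of the same 10 metalloproteinase genes and in 12.2% of all genes. A match describes the letters only.

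Mmp13, a collagenase with the largest change of the 13 genes, had signals of 4547 in the TNC-KO and 5831 in the WT Ca+AngII pool, against 19.2 in the TNC-KO and 23.0 in the WT control pool. Both treated pools lay far above both controls (log2 change 7.94, SE 0.13, limma adjusted p = 0.00221). Mmp12 stood at 4500 in the TNC-KO and 4503 in the WT Ca+AngII pool, against 82.8 in the TNC-KO and 192 in the WT control pool (5.16, SE 0.32, limma adjusted p = 0.00328). Mmp3, already well expressed in control aorta, read 18185 in the TNC-KO and 17799 in the WT Ca+AngII pool, against 2449 in the TNC-KO and 2524 in the WT control pool (2.86, SE 0.13, limma adjusted p = 0.00307). Mmp14, the membrane-anchored activator of Mmp2, read 8238 in TNC-KO and 7412 in WT Ca+AngII pools, against 1177 in TNC-KO and 1268 in WT control pools, and rose by 2.68 (SE 0.15). Mmp2, gelatinase A, was 14170 in TNC-KO and 12526 in WT Ca+AngII pools, against 3494 in TNC-KO and 3904 in WT control pools. Mmp9, gelatinase B, rose by 1.57 (SE 0.16, limma adjusted p = 0.0064), with log2 ratios of 1.75 in TNC-KO and 1.40 in WT. Mmp19, Mmp23 and Mmp11 also rose. Mmp17 fell by 0.66 on the log2 scale. Mmp8, the neutrophil collagenase, gave 157 in the TNC-KO and 131 in the WT Ca+AngII pool, against 17.2 in the TNC-KO and 77.9 in the WT control pool, and was not called.

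The tissue inhibitors of metalloproteinases moved in different directions. Timp1, the inducible inhibitor, reached 9796 in the TNC-KO and 10086 in the WT Ca+AngII pool, against 864 in the TNC-KO and 1106 in the WT control pool (3.35, SE 0.15, limma adjusted p = 0.00307). Timp4, an inhibitor with a narrower tissue range, was lower in both treated pools, with 668 in TNC-KO and 731 in WT, against 3139 in TNC-KO and 3361 in WT control pools. It fell by 2.22 (SE 0.13, limma adjusted p = 0.00325). Reck, a membrane-anchored inhibitor, fell by 0.80. Timp2 and Timp3 were not called, with log2 changes of 0.50 and -0.30. Among 19 ADAM and ADAMTS proteases that passed the threshold, 7 rose, against 16.6% of all genes tested. Another 2 fell, a share near that of all genes tested (12.3%). Adamts4, an aggrecanase, rose by 2.67 and Adam8, a leukocyte protease, by 2.62. Adamts1 fell by 1.23 and Adamts8 fell by 1.06.

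**Figure D2:**
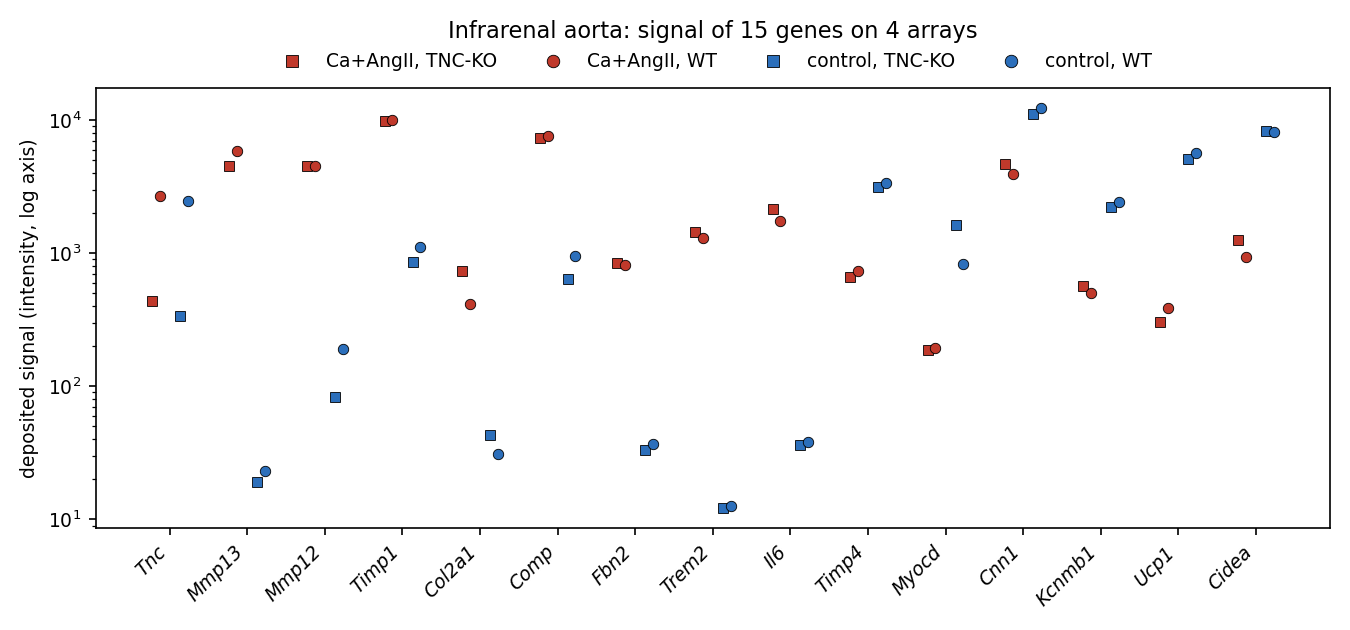
Deposited signal (intensity, log axis) of 15 genes on the 4 infrarenal arrays, Ca+AngII to the left of control, squares for TNC-KO and circles for WT pools. Mmp13 stands at 4547 (TNC-KO) and 5831 (WT) in the Ca+AngII pools, against 19.2 (TNC-KO) and 23.0 (WT) in the control pools, and the Tnc points separate by genotype and not by treatment.

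Of 10 fibrillar collagen genes past the threshold, 8 rose and 0 fell, with a median log2 ratio of 1.51 in TNC-KO and 1.43 in WT. Col1a1, the main chain of type I collagen, had 15880 in the TNC-KO and 15626 in the WT Ca+AngII pool, against 4958 in the TNC-KO and 5278 in the WT control pool (1.62, SE 0.13, limma adjusted p = 0.00479). Col2a1, the collagen of cartilage, had 741 in TNC-KO and 418 in WT Ca+AngII pools, against 43.2 in TNC-KO and 31.0 in WT control pools (3.93, SE 0.16, limma adjusted p = 0.00307). Col5a3 rose by 1.74 and Col5a1, a regulator of fibril diameter, by 1.37. Col3a1 and Col1a2 were not called on the probe set that stood for each gene, which was the brightest. Col3a1 there read 33702 in TNC-KO and 27597 in WT Ca+AngII pools, against 29625 in TNC-KO and 28712 in WT control pools. A dimmer probe set of Col3a1 read 18998 in the TNC-KO and 18081 in the WT Ca+AngII pool, against 7056 in the TNC-KO and 7250 in the WT control pool. For Col1a2 the pair of dimmer probe sets had log2 ratios of 0.94 and 1.82 in TNC-KO and of 0.82 and 1.65 in WT, against -0.01 in TNC-KO and -0.34 in WT on the brightest. The direction for these genes thus depends on the probe set, and whether the brightest are near the top of the scanner's range was not tested. Matrix genes at similarly high signal, Sparc, Fn1, Postn and Mgp, were also not called.

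Enzymes that process and cross-link collagen included 8 that rose and 2 that fell among 19. Lox, lysyl oxidase, which cross-links collagen and elastin, had 9009 in the TNC-KO and 9186 in the WT Ca+AngII pool, against 3909 in the TNC-KO and 4340 in the WT control pool (1.14, SE 0.13, limma adjusted p = 0.00887). P4ha3, a prolyl hydroxylase subunit, rose by 2.66 and Bmp1, which trims procollagen, by 1.59. Of 14 elastic fibre genes, 8 rose and 1 fell, with a median log2 ratio of 0.98 in TNC-KO and 0.91 in WT. Those that rose encode microfibril and linker proteins. Ltbp2, a microfibril-associated protein, had 4894 in TNC-KO and 5669 in WT Ca+AngII pools, against 596 in TNC-KO and 663 in WT control pools, and Fbln1 rose by 1.43, Fbln2 by 1.36, Mfap4 by 1.31 and Mfap2 by 1.24. A second Mfap2 probe set had log2 ratios of -0.75 in TNC-KO and 1.27 in WT, so its direction in TNC-KO depends on the probe set. Eln, which encodes elastin, read 8966 in the TNC-KO and 8588 in the WT Ca+AngII pool, against 8127 in the TNC-KO and 9873 in the WT control pool. The treated pools lay between the controls, and the change was -0.03 (SE 0.16, limma adjusted p = 0.899), with its sign turning under quantile normalization and with the mean of its probe sets. Ltbp1, which holds latent TGF-beta in the matrix, fell by 0.88.

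Matricellular and proteoglycan genes that were called mostly rose. Of 24 matricellular genes 13 rose, against 16.6% of all genes tested. Another 3 fell, a share near that of all genes tested (12.3%). Thbs1, thrombospondin-1, an activator of latent TGF-beta, rose by 2.37 (SE 0.15, limma adjusted p = 0.00325), and Spon1 rose by 2.39. Ccn1, an immediate early gene for a secreted matrix-associated protein, had 3626 in TNC-KO and 3270 in WT Ca+AngII pools, against 9005 in TNC-KO and 11202 in WT control pools, and fell by 1.54 (SE 0.17). Tnr, a relative of tenascin C, fell by 2.09. Fmod, the collagen-binding proteoglycan fibromodulin, had 14416 in the TNC-KO and 13497 in the WT Ca+AngII pool, against 2445 in the TNC-KO and 2963 in the WT control pool. It was 1 of 9 proteoglycan genes that rose among 20, and 3 fell, again near the share of all genes tested. Cemip, a hyaluronan-degrading protein, rose by 4.11.

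Genes of cartilage and bone formed a further group. Of 18 past the threshold, 11 rose and 3 fell, with a median log2 ratio of 1.96 in TNC-KO and 1.34 in WT. Of the 25 measured, 15 were higher and 8 lower in both genotypes, with medians of 1.5 in TNC-KO and 0.931 in WT. Comp, cartilage oligomeric matrix protein, had 7308 in the TNC-KO and 7567 in the WT Ca+AngII pool, against 643 in the TNC-KO and 948 in the WT control pool (3.25, SE 0.18, limma adjusted p = 0.00307). Acan, aggrecan, had 788 in TNC-KO and 509 in WT Ca+AngII pools, against 88.5 in TNC-KO and 72.1 in WT control pools. Col10a1, the collagen of hypertrophic cartilage, was low throughout, with 140 in TNC-KO and 108 in WT Ca+AngII pools, against 8.66 in TNC-KO and 9.75 in WT control pools. Cilp rose by 2.39 and Ibsp, bone sialoprotein, by 1.96. A second Ibsp probe set had log2 ratios of 6.37 in TNC-KO and 4.79 in WT, so the size for Ibsp depends on the probe set. The defining transcription factors Sox9, Sp7 and Dlx5 did not reach the signal threshold, and Alpl, alkaline phosphatase, was not called (0.04, SE 0.15). Cytl1, a secreted protein of cartilage, went the other way, with 2000 in TNC-KO and 1566 in WT Ca+AngII pools, against 10215 in TNC-KO and 12672 in WT control pools. It fell by 2.68 (SE 0.21, limma adjusted p = 0.00444), and Sox6 and Hapln1 also fell. Sost, the Wnt inhibitor sclerostin, had 1305 in the TNC-KO and 1499 in the WT Ca+AngII pool, against 5452 in the TNC-KO and 6229 in the WT control pool, and fell by 2.06 (SE 0.13, limma adjusted p = 0.00328).

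All 19 genes of macrophage identity rose, with a median log2 ratio of 2.70 in TNC-KO and 2.40 in WT. Cd68, a lysosomal glycoprotein of macrophages, had 4824 in the TNC-KO and 4940 in the WT Ca+AngII pool, against 438 in the TNC-KO and 628 in the WT control pool (3.22, SE 0.18, limma adjusted p = 0.00307). Csf1r, the receptor for macrophage colony-stimulating factor, had 15045 in TNC-KO and 14327 in WT Ca+AngII pools, against 5594 in TNC-KO and 5482 in WT control pools. Adgre1, the F4/80 antigen, rose by 2.33 and Itgam, an integrin of myeloid cells, by 3.19. Cybb, the catalytic subunit of the phagocyte NADPH oxidase, reached 4159 in the TNC-KO and 4346 in the WT Ca+AngII pool, against 482 in the TNC-KO and 554 in the WT control pool. Its partners Ncf1 and Ncf4 rose by 2.66 and 2.56, whereas Nox4, the oxidase of smooth muscle and endothelium, had 2145 in TNC-KO and 2655 in WT Ca+AngII pools, against 8792 in TNC-KO and 6920 in WT control pools, and fell by 1.71 (SE 0.21, limma adjusted p = 0.00946).

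Of 12 osteoclast-associated genes past the threshold, 6 rose and 0 fell, with a median log2 ratio of 0.82 in TNC-KO and 0.57 in WT. Of the 16 measured, 10 were higher and 4 lower in both genotypes. Atp6v0d2, a proton pump subunit of osteoclasts and macrophages, had 1957 in the TNC-KO and 1558 in the WT Ca+AngII pool, against 61.4 in the TNC-KO and 69.4 in the WT control pool (4.74, SE 0.18, limma adjusted p = 0.00307). Tnfsf11, the osteoclast differentiation factor RANKL, had 507 in TNC-KO and 734 in WT Ca+AngII pools, against 41.0 in TNC-KO and 23.0 in WT control pools (4.31, SE 0.36). Ctsk, cathepsin K, which degrades collagen and elastin, had 10948 in the TNC-KO and 9660 in the WT Ca+AngII pool, against 2170 in the TNC-KO and 2222 in the WT control pool. Acp5, tartrate-resistant acid phosphatase, was not called (0.51, SE 0.18, limma adjusted p = 0.109), and Tnfrsf11b, the decoy receptor for RANKL, rose by 0.90. Ctss, the elastin-degrading cathepsin S, had 17706 in TNC-KO and 18221 in WT Ca+AngII pools, against 2261 in TNC-KO and 2529 in WT control pools, and was 1 of 13 lysosomal genes that rose among 19. Of 20 genes of lipid-laden phagocytes, 11 rose and 1 fell. Gpnmb rose by 2.85 and Lgals3 by 2.97, and Cd36, a fatty acid receptor also made by fat cells, fell by 0.90.

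Chemokines of both main families were higher. Of 16 CC genes 14 rose, and of 17 CXC genes 12 rose. Ccl8, which attracts monocytes, had 14490 in the TNC-KO and 13392 in the WT Ca+AngII pool, against 980 in the TNC-KO and 1564 in the WT control pool (3.49, SE 0.23, limma adjusted p = 0.00352). Ccl2, the main monocyte attractant, had 1467 in TNC-KO and 1327 in WT Ca+AngII pools, against 93.6 in TNC-KO and 132 in WT control pools (3.65, SE 0.20, limma adjusted p = 0.00307), a call that was lost when all 8 aortic arrays shared 1 estimate of spread. Cxcl5, a neutrophil attractant, had 1031 in the TNC-KO and 2128 in the WT Ca+AngII pool, against 4.83 in the TNC-KO and 2.18 in the WT control pool. Cxcl12, which retains leukocytes in tissue, had 16999 in TNC-KO and 15412 in WT Ca+AngII pools, against 6225 in TNC-KO and 5772 in WT control pools. The Cxcl2 promoter is shown because 3 of 14 CXC genes with a window (Cxcl1, Cxcl2 and Cxcl3) held the NF-kB motif, against 0.47% of all genes, with the motif in capitals.
Cxcl2, chr5:90903649-90903948, + strand: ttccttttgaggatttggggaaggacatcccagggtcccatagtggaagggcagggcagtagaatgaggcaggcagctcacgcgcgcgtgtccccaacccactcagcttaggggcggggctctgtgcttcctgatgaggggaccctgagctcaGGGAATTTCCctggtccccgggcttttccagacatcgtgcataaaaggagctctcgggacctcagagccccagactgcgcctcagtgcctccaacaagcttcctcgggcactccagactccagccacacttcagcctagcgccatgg
Cxcl2 itself had 733 in TNC-KO and 729 in WT Ca+AngII pools, against 41.4 in TNC-KO and 24.2 in WT control pools.

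Interleukin genes were higher too. Il6, the inducer of the acute phase response, had 2168 in the TNC-KO and 1743 in the WT Ca+AngII pool, against 36.1 in the TNC-KO and 38.1 in the WT control pool (5.71, SE 0.16, limma adjusted p = 0.00307). Socs3, a feedback inhibitor of IL-6 signalling, had 4746 in TNC-KO and 4639 in WT Ca+AngII pools, against 378 in TNC-KO and 553 in WT control pools. Saa3, an acute phase protein made locally in inflamed tissue, reached 7698 in TNC-KO and 11382 in WT Ca+AngII pools, against 74.7 in TNC-KO and 104 in WT control pools. Within the IL-1 and inflammasome group 12 of 14 rose. Il1b rose by 3.80, its antagonist Il1rn by 3.55, and Il33, an alarmin of stromal cells, by 2.54. The Il1b call, like that of Ccl2, was lost when all 8 aortic arrays shared 1 estimate of spread. Of 12 neutrophil genes 7 rose, with a median log2 ratio of 3.14 in TNC-KO and 1.47 in WT. S100a8, a calprotectin subunit, read 7819 in the TNC-KO and 4792 in the WT Ca+AngII pool, against 575 in the TNC-KO and 1656 in the WT control pool.

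Interferon-induced genes rose together, 17 of 21, with a median log2 ratio of 1.30 in TNC-KO and 1.66 in WT. Ifit1, an inhibitor of foreign RNA translation, had 1850 in the TNC-KO and 2639 in the WT Ca+AngII pool, against 395 in the TNC-KO and 296 in the WT control pool (2.69, SE 0.26, limma adjusted p = 0.00622). Mx1, an antiviral GTPase, had 669 in TNC-KO and 1082 in WT Ca+AngII pools, against 105 in TNC-KO and 94.1 in WT control pools. Cxcl10 rose by 2.81, Oas2 by 3.08 and Irf7, the amplifier of type I interferon, by 2.32. The Ifit1 promoter is shown because 11 of the 16 interferon-induced genes with a window held the interferon-stimulated response element, against 3.99% of all genes. Its matches, both on the opposite strand, are in capitals.
Ifit1, chr19:34640639-34640938, + strand: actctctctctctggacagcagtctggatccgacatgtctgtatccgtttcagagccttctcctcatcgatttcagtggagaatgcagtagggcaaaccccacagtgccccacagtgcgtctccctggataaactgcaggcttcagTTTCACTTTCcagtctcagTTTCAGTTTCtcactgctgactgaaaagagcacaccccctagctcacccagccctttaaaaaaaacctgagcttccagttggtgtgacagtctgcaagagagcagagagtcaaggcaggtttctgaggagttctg

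Lymphoid and antigen-presentation genes were higher as well. Of 12 T and NK cell genes 8 rose, of 8 B and plasma cell genes 6 rose, and of 11 genes of MHC class II and dendritic cells 11 rose. H2-Ab1, a class II chain, had 9575 in TNC-KO and 9651 in WT Ca+AngII pools, against 1937 in TNC-KO and 2298 in WT control pools. Ighm, the heavy chain of IgM, had 8728 in the TNC-KO and 4790 in the WT Ca+AngII pool, against 496 in the TNC-KO and 302 in the WT control pool, and all 9 immunoglobulin genes rose. Lymph node markers moved with these genes: their summed signal was 7659 in the TNC-KO and 10259 in the WT Ca+AngII pool, against 2369 in the TNC-KO and 2121 in the WT control pool. Their part in the result was not tested. Complement genes rose in 11 of 13 cases, C1qa by 2.23. Of 27 cell cycle genes 19 rose, with Mki67, a marker of dividing cells, at 506 in TNC-KO and 601 in WT Ca+AngII pools, against 168 in TNC-KO and 182 in WT control pools (1.66, SE 0.13, limma adjusted p = 0.00466).

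Genes of the contractile smooth muscle cell were lower. Of 25, 22 fell and 1 rose, with a median log2 ratio of -0.86 in TNC-KO and -1.06 in WT. Myh11, smooth muscle myosin, had 9968 in the TNC-KO and 8638 in the WT Ca+AngII pool, against 18978 in the TNC-KO and 18736 in the WT control pool, and fell by 1.02 (SE 0.14, limma adjusted p = 0.0121). Cnn1, calponin, had 4725 in TNC-KO and 3961 in WT Ca+AngII pools, against 11114 in TNC-KO and 12300 in WT control pools, and fell by 1.43 (SE 0.16, limma adjusted p = 0.00849). Ppp1r14a, an inhibitor of myosin phosphatase, fell by 2.03, Synpo2 fell by 1.85 and Tagln fell by 0.73. Smoc2, a secreted matrix protein in the same list, rose by 1.52. Acta2, smooth muscle actin, was not called on its brightest probe set, at 26776 in TNC-KO and 22726 in WT Ca+AngII pools, against 32462 in TNC-KO and 29284 in WT control pools (-0.32, SE 0.13, limma adjusted p = 0.146). Both dimmer Acta2 probe sets were lower in both Ca+AngII pools. The brighter of them read 1182 in the TNC-KO and 1332 in the WT Ca+AngII pool, against 4112 in the TNC-KO and 4425 in the WT control pool. The mean of all 3 changed by -1.36 and was called, so the size for Acta2 depends on the probe set, as for Col3a1.

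Regulators of the contractile programme gave a mixed count, with 3 falling and 1 rising of 12. Myocd, myocardin, the coactivator of smooth muscle genes, had 187 in TNC-KO and 195 in WT Ca+AngII pools, against 1635 in TNC-KO and 834 in WT control pools, and fell by 2.61 (SE 0.28, limma adjusted p = 0.00763). Hey2 fell by 1.76 and Srf, the partner of myocardin, fell by 0.64. Mrtfa, a related coactivator, rose by 0.75. Of 20 ion channel and cyclic nucleotide genes of smooth muscle, 14 fell and 1 rose, Kcnma1, whose 5 probe sets differed in direction. Kcnmb1, the beta subunit of the large-conductance potassium channel, had 567 in the TNC-KO and 501 in the WT Ca+AngII pool, against 2239 in the TNC-KO and 2420 in the WT control pool (fell by 2.13, SE 0.15, limma adjusted p = 0.00381). A second Kcnmb1 probe set had log2 ratios of only -0.25 in TNC-KO and -0.09 in WT, and the mean of both changed by -1.15, so its size too depends on the probe set. Prkg1, the cGMP-dependent kinase, fell by 1.53 and Gucy1b1, the nitric oxide receptor subunit, fell by 1.51. The 6 smooth muscle markers summed to 58620 in TNC-KO and 51223 in WT Ca+AngII pools, against 91540 in TNC-KO and 91429 in WT control pools.

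The receptors for AngII were lower or not called. Agtr1b had 192 in the TNC-KO and 219 in the WT Ca+AngII pool, against 738 in the TNC-KO and 759 in the WT control pool, and fell by 1.87 (SE 0.14, limma adjusted p = 0.00411). Agtr1a was not called (-0.50, SE 0.20). Of 17 genes of the angiotensin system and of regulators of G-protein signalling 4 rose, against 16.6% of all genes tested, and 5 fell, against 12.3%. Among these regulators, Rgs16 rose by 3.89, while Rgs4 fell by 1.16 and Rgs5, a pericyte and smooth muscle gene, fell by 0.58. Rgs17, one of the 20 lowest genes by the smaller ratio, fell by 2.64. Endothelial genes were mixed, with 6 falling and 1 rising of 20 and a median log2 ratio of -0.03 in TNC-KO and -0.05 in WT. Pecam1 had 1923 in TNC-KO and 1909 in WT Ca+AngII pools, against 3529 in TNC-KO and 3974 in WT control pools, Vwf fell by 1.13 and Nos3, endothelial nitric oxide synthase, fell by 0.98. Cdh5, the adherens junction cadherin of the same cells, was not called (-0.02, SE 0.13).

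Genes of brown fat were lower. Of 15, 13 fell, with a median log2 ratio of -1.93 in TNC-KO and -2.02 in WT. Ucp1, the uncoupling protein of thermogenic fat, had 307 in the TNC-KO and 391 in the WT Ca+AngII pool, against 5125 in the TNC-KO and 5716 in the WT control pool (fell by 3.97, SE 0.14, limma adjusted p = 0.00307). Cidea, a lipid droplet protein, had 1263 in TNC-KO and 943 in WT Ca+AngII pools, against 8233 in TNC-KO and 8114 in WT control pools. Prdm16 fell by 1.67, and Dio2 and Elovl3 were not called. White fat genes fell in 16 of 18 cases, among them Pparg, the regulator of adipocyte formation, and Lep, leptin, which fell by 1.91. Adipoq, adiponectin, had 16966 in TNC-KO and 13321 in WT Ca+AngII pools, against 24721 in TNC-KO and 22559 in WT control pools. Its fall of -0.65 (limma adjusted p = 0.0359) did not hold under 4 other settings, given with the alternatives. Fatty acid oxidation genes fell in 17 of 19 cases, with Acadm, medium-chain acyl-CoA dehydrogenase, at 5870 in the TNC-KO and 5154 in the WT Ca+AngII pool, against 14814 in the TNC-KO and 15120 in the WT control pool. Respiratory chain genes fell in 17 of 19 cases, by a median log2 ratio of -0.68 in TNC-KO and -0.80 in WT. The 4 brown fat markers summed to 3785 in TNC-KO and 2840 in WT Ca+AngII pools, against 22507 in TNC-KO and 23738 in WT control pools, and how much fat was taken with each segment was not recorded in the labels.

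**Figure D3:**
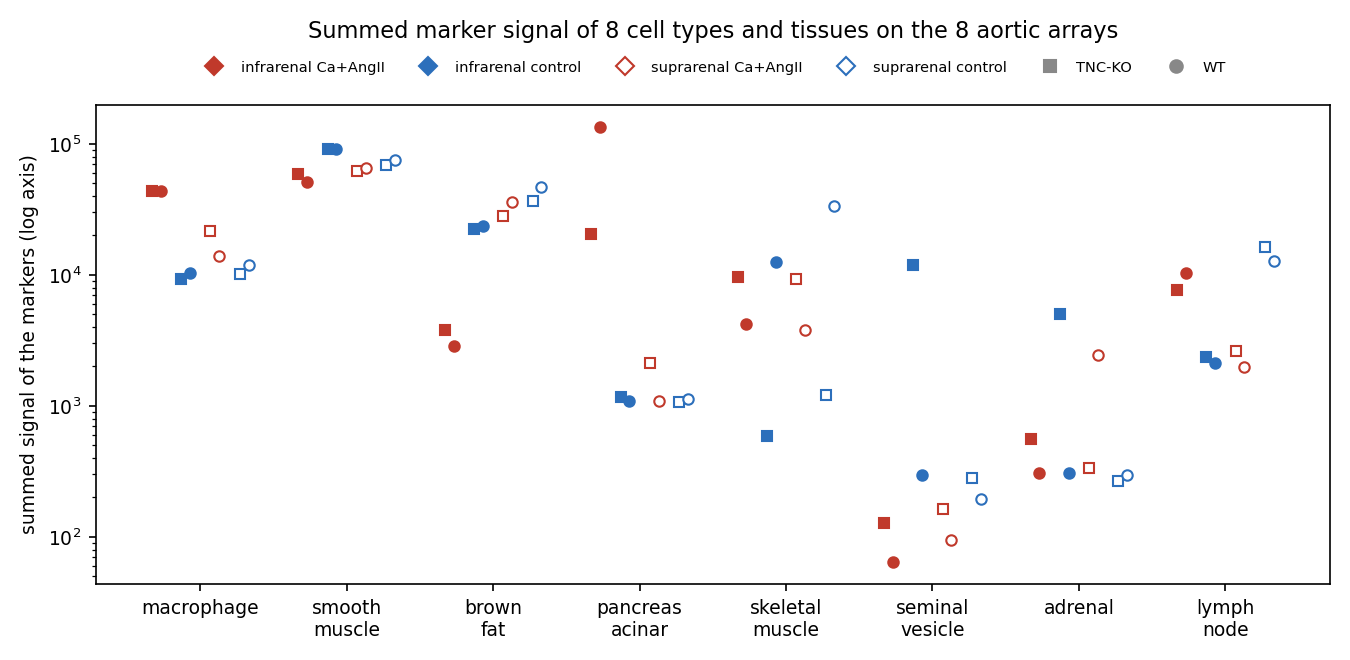
Summed signal (log axis) of marker genes of 8 cell types and tissues on the 8 aortic arrays, red for Ca+AngII, blue for control, filled for infrarenal, open for suprarenal, squares for TNC-KO and circles for WT. In infrarenal aorta macrophage markers were higher and smooth muscle and brown fat markers lower in both Ca+AngII pools, pancreas markers were high in both Ca+AngII pools, and seminal vesicle and adrenal markers were high in the TNC-KO control pool alone.

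Of 15 genes of activated fibroblasts 11 rose and 1 fell. Cthrc1, a secreted protein of injured arteries, had 1658 in the TNC-KO and 1769 in the WT Ca+AngII pool, against 209 in both control pools (3.03, SE 0.13, limma adjusted p = 0.00307), and Fap, a surface protease, rose by 2.04 and Pdpn by 2.54. Of 17 coagulation and fibrinolysis genes 11 rose and 1 fell. F7, coagulation factor VII, had 451 in TNC-KO and 415 in WT Ca+AngII pools, against 54.0 in TNC-KO and 53.2 in WT control pools, and Plat, tissue plasminogen activator, rose by 1.01. F3, tissue factor, fell by 0.84. Of 19 basement membrane genes 3 rose, a share near that of all genes tested (16.6%), and 6 fell, against 12.3% of all genes. Col4a4 fell by 1.80 and Col4a3 fell by 1.45, while Nid2, a linker protein, rose by 1.19.

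Stress and redox genes gave mixed counts. Of 20 genes of the unfolded protein and integrated stress responses 7 rose and 0 fell. Sdf2l1, an endoplasmic reticulum protein, had 1663 in TNC-KO and 1548 in WT Ca+AngII pools, against 369 in TNC-KO and 414 in WT control pools, and the chaperone Hspa5 rose by 0.61. Ddit3 and Atf4, transcription factors of the same responses, were not called (0.24 and 0.14). Hmox1, heme oxygenase-1, had 1483 in the TNC-KO and 1197 in the WT Ca+AngII pool, against 294 in the TNC-KO and 241 in the WT control pool, and rose by 2.32. Among antioxidant enzymes Gpx3 rose by 0.88, while Sod2 fell by 0.65, Gpx4 fell by 0.74 and Cat, catalase, fell by 1.01. Of 20 genes of glycolysis and hypoxia 2 rose, against 16.6% of all genes tested, and 6 fell, against 12.3% of all genes. Hif1a rose by 0.81. Aldoa, aldolase A, fell, with 8233 in TNC-KO and 6776 in WT Ca+AngII pools, against 15760 in TNC-KO and 14604 in WT control pools. Of 13 Notch pathway genes 4 fell and 0 rose.

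Some of the genes with the most extreme ratios in both genotypes belonged to none of these groups. Prg4, the lubricating proteoglycan lubricin, had 5080 in the TNC-KO and 5598 in the WT Ca+AngII pool, against 129 in the TNC-KO and 132 in the WT control pool. Acod1, the itaconate-producing enzyme of activated macrophages, had 156 in TNC-KO and 387 in WT Ca+AngII pools, against 3.96 in TNC-KO and 5.62 in WT control pools. Crabp2, a retinoic acid carrier, had 452 in TNC-KO and 344 in WT Ca+AngII pools, against 9.92 in TNC-KO and 11.0 in WT control pools. Among the lowest, Pgr, the progesterone receptor, had 97.4 in TNC-KO and 89.4 in WT Ca+AngII pools, against 698 in TNC-KO and 885 in WT control pools. Nrg4, a growth factor secreted by brown fat, had 232 in TNC-KO and 179 in WT Ca+AngII pools, against 1300.3 in TNC-KO and 1013 in WT control pools. In each case both treated pools lay on the same side of both control pools. The genes were picked for extreme ratios in both genotypes, so this separation supports nothing by itself.

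The suprarenal segment of the same mice, which saw AngII but no CaCl2, gave fewer shared changes. Among the 12105 genes of the infrarenal threshold, 80 (0.661%) were at least 2-fold higher and 95 (0.785%) at least 2-fold lower in both genotypes there. That threshold can favour genes bright in infrarenal pools, so the count was repeated, after the data had been seen, on the 12172 genes that reached the median on at least 1 suprarenal array. On these, 903 (7.42%) were at least 2-fold higher and 481 (3.95%) lower in both genotypes in infrarenal aorta, against 74 (0.608%) higher and 118 (0.969%) lower in suprarenal aorta. Of the 1025 genes higher in infrarenal aorta, 56 were also at least 2-fold higher in both genotypes in suprarenal aorta, and of the 487 lower genes 4 were also lower there. limma on all 8 aortic arrays tested the difference between the infrarenal and the suprarenal response over 12621 genes. It called 764 higher (6.05%) and 507 lower (4.02%) in the infrarenal segment at an adjusted p under 0.05, 10.1% in either direction. Without the signal threshold 0 genes passed limma (lowest adjusted p 0.0563), and 3537 had an unadjusted p under 0.05. Of the 1025 higher genes 520 were called different, and of the 487 lower genes 321. These genes were picked by infrarenal ratios that also enter the segment difference, so their share of calls supports nothing by itself.

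Matrix and macrophage genes were among those whose response differed between segments. The infrarenal minus suprarenal difference for Mmp13 was 4.86 on the log2 scale (limma adjusted p = 0.0065), with suprarenal log2 ratios of 3.34 in TNC-KO and 2.81 in WT. For Fbn2 it was 4.28 and for Atp6v0d2 4.34. Of 19 macrophage identity genes 11 responded more in the infrarenal segment, as did 10 of 21 interferon genes and 4 of 13 metalloproteinases. These counts stand against 6.05% of all genes in the segment test. Contractile genes responded more negatively in 10 of 25 cases, brown fat genes in 10 of 15 and fatty acid oxidation genes in 10 of 19. Over all genes in the segment test the share was 4.02%. The difference was not called for Timp1 (0.25, limma adjusted p = 0.85), whose suprarenal log2 ratios were 4.22 in TNC-KO and 1.96 in WT, nor for Il6, Ccl2 and Cxcl2. For Il6 the suprarenal log2 ratio was 7.39 in TNC-KO and 2.11 in WT, and for Cxcl2 it was 10.73 in TNC-KO and -0.34 in WT. Neutrophil markers in the suprarenal pools were higher with Ca+AngII in TNC-KO but lower in WT. They summed to 32699 in the TNC-KO and 846 in the WT Ca+AngII pool, against 752 in the TNC-KO and 3177 in the WT control pool. Their part in the result was not tested.

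**Figure D4:**
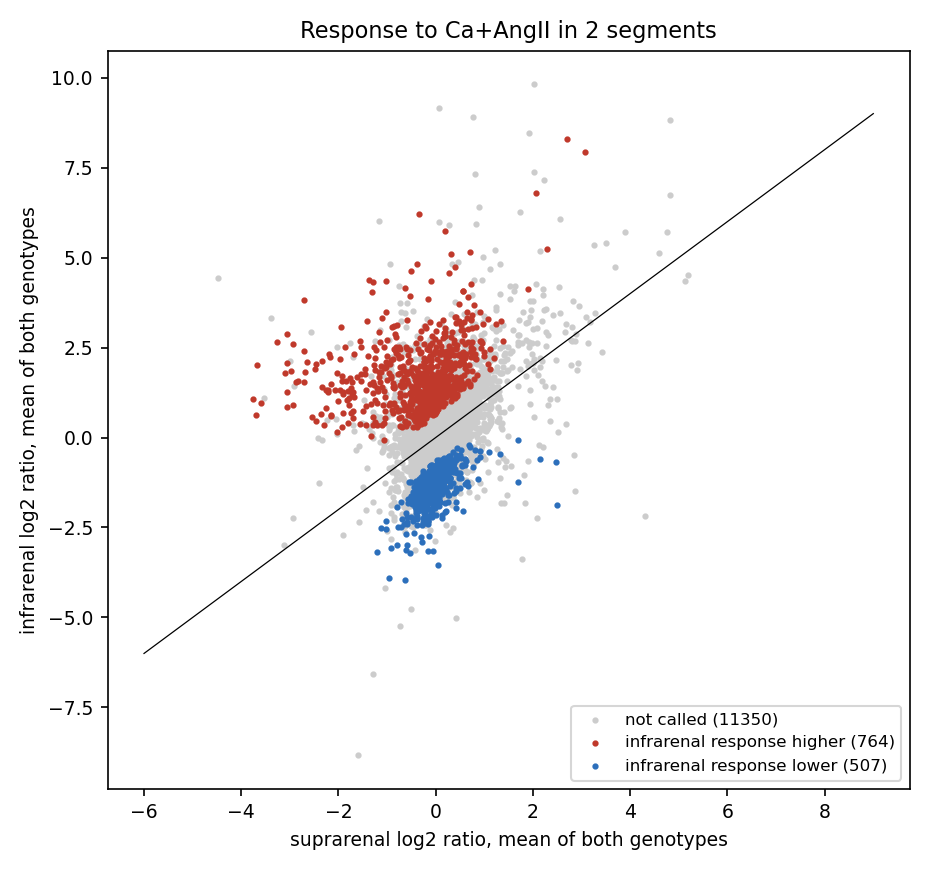
Infrarenal log2 ratio of Ca+AngII over control (vertical axis) against the suprarenal ratio (horizontal axis), each the mean of both genotypes, 1 point per gene tested (12621), with the line of equal response. The 764 genes with a higher infrarenal response lie above the line (red) and the 507 with a lower one below it (blue).

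The largest positive segment difference among called genes was that of Reg2 (6.56). Its infrarenal signals were 1135 in TNC-KO and 7455 in WT Ca+AngII pools, against 62.2 in TNC-KO and 24.8 in WT control pools. Several of the 10 largest were of genes that were lower in suprarenal Ca+AngII pools. For Ccr7, the lymph node homing receptor, the infrarenal log2 ratio was 2.65 in TNC-KO and 3.10 in WT, against suprarenal ratios of -1.70 in TNC-KO and -4.43 in WT. Ltb, Cd8b1, Cd6 and Ly9, all genes of lymphocytes, had the same pattern. The lymph node markers summed to 2644 in TNC-KO and 1988 in WT suprarenal Ca+AngII pools, against 16432 in TNC-KO and 12742 in WT suprarenal control pools. Their part in the result was not tested. Alas2, the heme synthesis enzyme of red cell precursors, stood at the other end, with infrarenal ratios of -1.82 in TNC-KO and -1.95 in WT, against suprarenal ratios of 3.30 in TNC-KO and 1.70 in WT. Hhip, which binds hedgehog ligands, had infrarenal signals of 144 in TNC-KO and 115 in WT Ca+AngII pools, against 1165 in TNC-KO and 1208 in WT control pools.

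**Figure D5:**
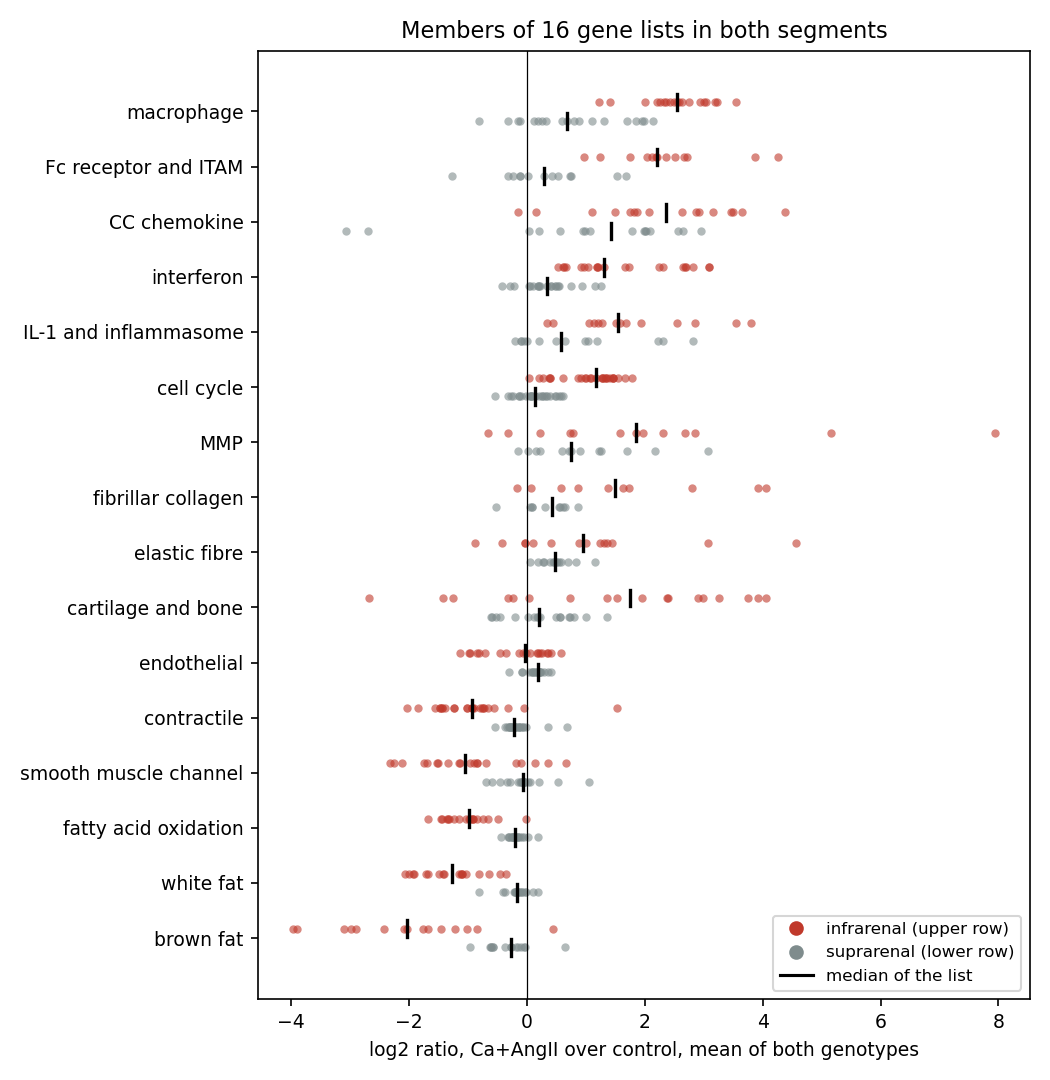
Log2 ratio of Ca+AngII over control, mean of both genotypes, for members of 16 gene lists that passed the signal threshold, 1 point per gene, infrarenal above suprarenal, with the list median as a bar. All macrophage points lie to the right of 0 in infrarenal aorta, while the suprarenal points fall on both sides of 0.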

How the data were processed

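RNA from aortic segments was measured on Affymetrix mouse expression arrays. The intensity values per probe set are those the authors deposited, made with Affymetrix Expression Console per the submitters' processing notes; its version, algorithm and scaling were not given in these sources. Of 45101 probe sets, 34945 named 1 gene; each of 18193 genes was read from its brightest probe set, averaged across all 22 arrays. Genes at or above the array median on at least 1 array of the comparison were kept. Log2 intensity was fitted with limma 3.58.1 (R 4.3.3), with genotype as block in 4 infrarenal arrays (1 residual degree of freedom, 3.23 prior), and with genotype, segment and treatment by segment in 8 aortic arrays. P-values were adjusted by the Benjamini-Hochberg method. A call of 2-fold needed a log2 ratio of 1 in both genotypes. No deposited value column was left unmapped. Groups followed the labels.

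Tested on simulated data with 200 changed genes among 12105, limma recovered 96.5% at a log2 change of 2, with 16 false calls, and 0% at 1, with 0 false calls. The infrarenal data gave 3495 calls, 1653 of them under a log2 change of 1. The adjusted p cutoff depends on how many genes change, and the simulation changed only 200. Its recovery at a log2 change of 1 therefore does not describe these calls. Genes named were Tnc, the 20 highest and 20 lowest by the smaller ratio, the 10 highest and 10 lowest segment differences, members of the gene lists, and the 8 with the largest opposite ratios. Members and lists were chosen with earlier results of these data known, and the dimmer probe sets and promoter motifs after their values were seen. The number of arrays limits the precision. Promoters are RefSeq sequences on GRCm38.p6. Alternatives were quantile normalization, median centring, an offset of 32, other filters, the mean of probe sets, an intensity trend, other blocks and leaving out a genotype. Python 3.11.15 was used for tables and figures.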

Additional observations from a re-analysis of the deposited data

Results flagged for a closer look

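The infrarenal and suprarenal responses to treatment differed for 1271 genes by the treatment by segment test of limma (adjusted p under 0.05).

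In the infrarenal aorta 26 genes were at least 2-fold changed in opposite directions in the genotypes, which was not tested because each side was 1 array. Among all genes with ratios of opposite sign, of any size, the largest differences (TNC-KO minus WT log2 ratio) were -10.27 for Spinkl, -9.78 for Sva and -5.55 for Foxa1. On the other side they were 6.70 for Myh4, 6.43 for Tnnt3, 6.04 for Tnni2, 6.00 for Myot and 5.75 for Ckm. Spinkl was not one of the 26, since its log2 ratio in WT was only 0.13. Myh4, Tnnt3, Tnni2, Myot and Ckm are skeletal muscle genes. Myh4 read 2589 in the TNC-KO and 1189 in the WT Ca+AngII pool, against 75.3 in the TNC-KO and 3605 in the WT control pool.

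Among 10092 probe sets that named no gene or several, 3736 passed the signal threshold, and 222 were at least 2-fold higher and 175 at least 2-fold lower in both genotypes. They entered no comparison above.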

How the results depend on the processing

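The 2012 higher and 1483 lower limma calls (3495) became 0 without the signal threshold, 2121 with the mean of all probe sets, 4174 with no genotype block (no replicate block), and between 2597 and 4600 under quantile normalization, median centring, an offset of 32, a 70th percentile threshold, an intensity trend or all 8 aortic arrays. Genotype pairs the arrays by design, and dropping the block changed the count by less than 1.5 times. The 1271 segment calls became 0 without the threshold, 756 with the mean of probe sets and 1944 with an intensity trend, and 1062 with the pool as a block. The 487 genes lower in both genotypes became 875 without the threshold. With 1 genotype left out, 1284 to 1332 genes were higher and 747 to 837 lower, against 1025 and 487 in both, and 2029 to 2299 genes differed at least 2-fold between segments, against 1873. limma could not be fitted with 1 genotype left, for want of residual degrees of freedom. Of 1025 higher and 487 lower genes, 979 and 467 were kept under quantile normalization, 963 and 400 under median centring, and 815 and 385 with the mean of probe sets. Median centring moved the median log2 ratio to 0.19 in TNC-KO and -0.09 in WT. The Eln change turned to 0.0323 under quantile normalization and to 0.0428 with the mean of probe sets. Among 37 genes refitted under each alternative, Acta2 (-1.36) and Col3a1 (0.72) passed the test with the mean of probe sets, where other genes are also tested. Adipoq missed it under quantile normalization (-0.53), median centring (-0.64), the mean of probe sets and no threshold (-0.65 each). Of the 37, 33 lost the call without the threshold, and Ccl2 and Il1b also lost it with all 8 aortic arrays. The causes were not tested.

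Each group is 1 pooled array, so no value carries an error within a genotype. Genotype and pool cannot be told apart, nor can CaCl2 and AngII. Signals of markers of other tissues and of the brightest probe sets limit how the ratios can be read.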

Other observations

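Genes of the molecular clock differed between the pools. Of 14, 8 fell and 2 rose, with a median log2 ratio of -1.55 in TNC-KO and -0.92 in WT. Per2, a repressor of the clock, had 348 in the TNC-KO and 338 in the WT Ca+AngII pool, against 1589 in the TNC-KO and 1279 in the WT control pool (fell by 2.05, SE 0.15, limma adjusted p = 0.00396). Dbp, an output factor of the clock, had 549 in the TNC-KO and 3193 in the WT Ca+AngII pool, against 9099 in the TNC-KO and 8340 in the WT control pool. The positive regulators Npas2 and Arntl rose, by 2.63 and 1.34. The suprarenal medians were -1.11 in TNC-KO and -0.18 in WT, and 0 of 14 genes were called different between segments, against 10.1% of all genes in that test. The hour at which tissue was taken is not in the labels.

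Of 25 Wnt pathway genes 10 rose and 2 fell, with a median log2 ratio of 0.53 in TNC-KO and 0.43 in WT. Sfrp1, a secreted Wnt antagonist, had 8632 in the TNC-KO and 10168 in the WT Ca+AngII pool, against 1026 in the TNC-KO and 1030 in the WT control pool (3.19, SE 0.14, limma adjusted p = 0.00307), and its relatives Frzb and Sfrp4 rose by 2.51 and 2.48. Sost, another Wnt antagonist, fell by 2.06. Axin2, a target of the pathway, was not called (0.26, SE 0.15). Within TGF-beta and BMP signalling 7 of 25 genes rose and 5 fell, with Bmper up by 2.63 and Tgfbr2 by 1.27, and Id1, a BMP target, fell by 1.11. Of 14 nerve genes 8 fell, with Npy, a sympathetic transmitter, at 3158 in TNC-KO and 3017 in WT Ca+AngII pools, against 6502 in TNC-KO and 6920 in WT control pools.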
